A study of Saccharomyces cerevisiae with 15 samples.

Results

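The 10 genes described here encode enzymes of the tricarboxylic acid (TCA) cycle of budding yeast mitochondria. They were chosen by systematic name from the enzymes of the cycle. The rule holds no measured value, though earlier results of these data were known when the genes were chosen. All 10 were found among the 7126 genes of the expression table. In the order of the reactions they are CIT1 (citrate synthase), ACO1 (aconitase), IDH1 and IDH2 (the subunits of NAD-dependent isocitrate dehydrogenase), KGD1 and KGD2 (subunits of the 2-oxoglutarate dehydrogenase complex), LSC1 and LSC2 (the alpha and beta subunits of succinyl-CoA ligase), FUM1 (fumarase) and MDH1 (mitochondrial malate dehydrogenase). Succinate dehydrogenase, the remaining step, was measured as a companion list.

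The cycle oxidises acetyl groups to carbon dioxide, passes electrons to the respiratory chain, and supplies 2-oxoglutarate and oxaloacetate for amino acid synthesis. Its genes are known to be repressed while yeast ferments glucose. The CCAAT-binding complex Hap2/3/4/5, whose limiting subunit is Hap4, activates many of them when respiration is needed. In cells with impaired respiration the retrograde factors Rtg1 and Rtg3 take over the control of the first 4 genes, CIT1, ACO1, IDH1 and IDH2, and also drive CIT2, which encodes peroxisomal citrate synthase.

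Polyadenylated RNA was measured in 15 libraries from cells grown in YPD at 30 °C, 3 replicates of each of 5 strains. The strains were the ulp2 slx5 double mutant (both genes replaced with kanMX), slx5 (kanMX), ulp2 (kanMX), set1 (SET1 replaced with HIS3) and wild type (WT). Ulp2 removes SUMO chains from proteins. Slx5, with Slx8, attaches ubiquitin to proteins that carry SUMO, and Set1 methylates histone H3 within COMPASS. Each group is a single strain, so the replicates measure the spread between libraries of 1 strain. All strains carry his3delta_1, leu2delta_0, ura3delta_0 and lys2delta_0 by label. The mutants are labelled MATalpha with met15delta_0 in addition, and WT is labelled MATa.

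The libraries summed to 1213826 to 1761583 FPKM (fragments scaled to transcript length and to the mapped fragments of the library), and 645 to 819 genes were at 0 in a library. The FPKM table gives no depth. Low values placed the libraries at about 0.503 to 1.05 times the depth of WT replicate 1, with set1 replicate 0 the shallowest. The deleted genes had group means of 0.0152 to 0.104 FPKM where the label deletes them. Marker genes departed from the labels. The 5 MATa-specific markers summed to 7443 to 8746 FPKM in the double mutant, 221 to 428 in slx5, 807 to 1017 in ulp2, 102 to 239.5 in set1 and 13129 to 15916 in WT. The 4 MATalpha-specific markers summed to 56.9 to 62.1 FPKM in the double mutant, 7656 to 7689 in slx5, 6524 to 6944 in ulp2, 6218 to 6640.5 in set1 and 48.6 to 50.9 in WT. The double mutant therefore resembled WT in mating-type expression, and the 3 single mutants did not. MET17, the gene of the met15 allele, averaged 228 FPKM in the double mutant, 0.726 in slx5, 310.2 in ulp2, 300.3 in set1 and 137 in WT, so among the strains labelled met15 it was near 0 in slx5 alone. LYS2, deleted by label in every strain, averaged 37.0 FPKM in the double mutant, 43.4 in slx5, 46.2 in ulp2, 0.0694 in set1 and 0.0398 in WT. A single mutant compared with WT or with the double mutant therefore also differed in mating-type expression. Within each such comparison the deletion and the mating type cannot be told apart. The part of the MET17 and LYS2 differences in the results was not tested.

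TCA cycle transcripts were higher in both strains that lack SLX5. The 10 genes summed to 2524 to 2665 FPKM in the double mutant, 2633 to 2695 in slx5, 1212 to 1277 in ulp2, 1578 to 1656 in set1 and 1189.9 to 1320.3 in WT. The sums of the strains without SLX5 lay above those of all the others, set1 stood between, and ulp2 and WT overlapped. In such bulk RNA, fewer cells that express a gene and less RNA per cell cannot be told apart. Each difference below was tested with limma on log2(FPKM + 1). P-values were adjusted by Benjamini-Hochberg over 6474 genes, and an adjusted p under 0.05 counts as a call. In the double mutant 10 of the 10 genes rose, where 32.9% of all tested genes rose and 29.4% fell. In slx5 9 rose and 0 fell, where 25.6% of all tested genes rose and 25.1% fell. In ulp2 3 rose and 2 fell (27.8% and 26.7% of all tested genes), and in set1 7 rose and 0 fell (22.1% and 15.2%). The median log2 difference from WT of the 10 genes was 0.98 in the double mutant, 1.14 in slx5, -0.038 in ulp2 and 0.36 in set1, while that of all tested genes was 0.025, -0.0022, -0.017 and 0.013 in the same 4 strains.

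**Figure D1:**
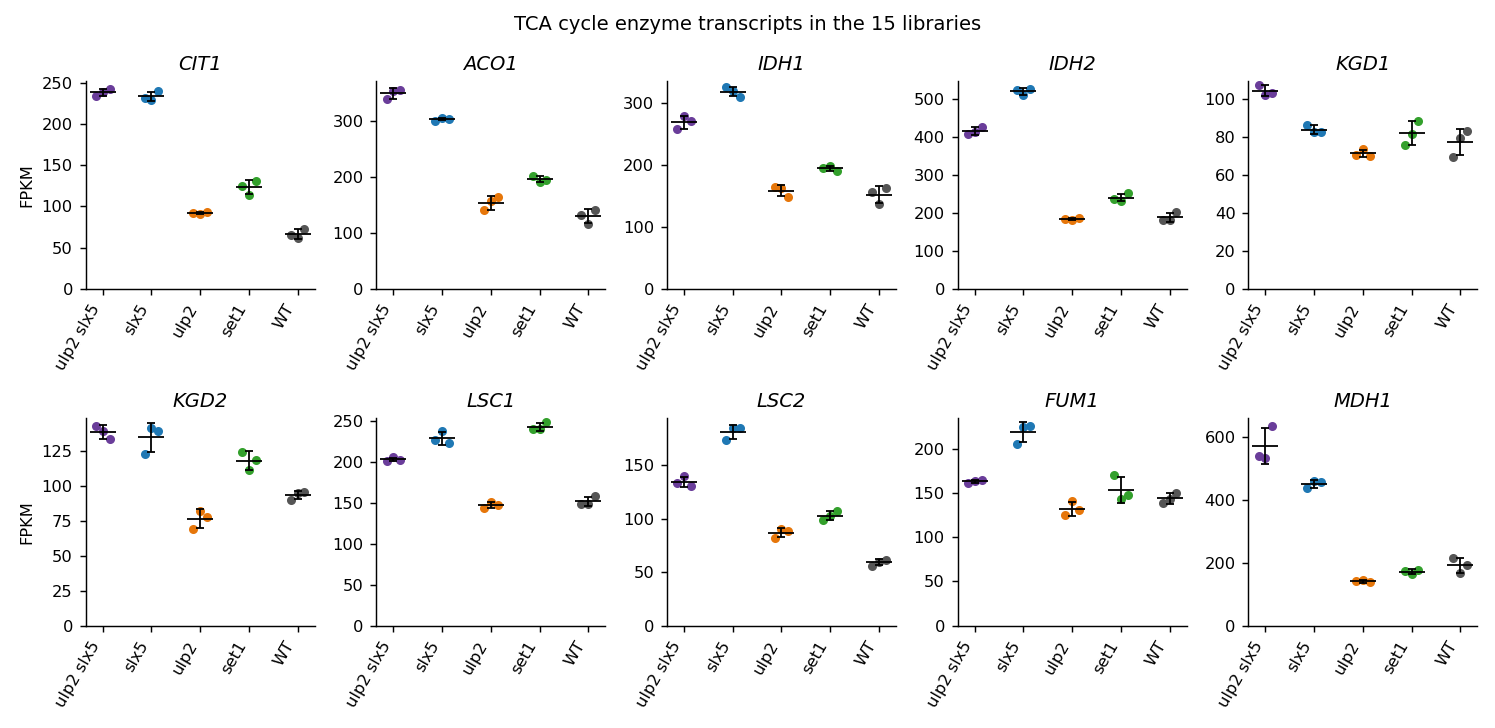
FPKM (vertical axes, from 0, on a separate scale for each gene) of the 10 TCA cycle genes in 15 libraries. Points are libraries, and bars are the mean ± SD of the 3 libraries of a strain, with strains along the horizontal axes. For CIT1, ACO1, IDH1, IDH2, LSC2 and MDH1 the double mutant and slx5 stand above the 3 other strains, while LSC1 is highest in set1.

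All 10 genes have a single uninterrupted coding segment on build R64, of 990 bases for LSC1 to 3045 bases for KGD1. Their replicates agreed closely, with coefficients of variation of 0.773 to 12.4% within a strain. Stretches from before the start codons of 4 genes are printed because these genes were higher in both strains without SLX5 and differ in the letters they hold. They were read from the R64 genome and its RefSeq annotation, and none overlaps an annotated gene. Capitals mark CCAAT (the core bound by the Hap complex), GTCAC (the core of the R box of Rtg1/Rtg3) or AGGGG (the core of the stress response element) on either strand.
CIT1, chrXIV:631342-631461, minus strand, 400 to 281 bases before the start codon: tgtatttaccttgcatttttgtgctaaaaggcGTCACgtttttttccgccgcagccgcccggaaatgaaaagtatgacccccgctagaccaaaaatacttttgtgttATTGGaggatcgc
ACO1, chrXII:737739-737848, minus strand, 300 to 191 bases before the start codon: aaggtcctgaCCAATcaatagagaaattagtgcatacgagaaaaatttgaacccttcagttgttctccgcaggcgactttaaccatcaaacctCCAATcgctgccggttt
MDH1, chrXI:278843-278892, plus strand, 280 to 231 bases before the start codon: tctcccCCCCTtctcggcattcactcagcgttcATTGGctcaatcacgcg
LSC1, chrXV:592947-592976, plus strand, 110 to 81 bases before the start codon: gaaggagacaagtttCCCCTaattgttgtt
In the 500 bases before the start codon, CCAAT on either strand was present at 8 of the 10 genes, against 62.5% of 5986 protein-coding genes. GTCAC was present at 6 of 10, against 42.4%, and AGGGG at 8 of 10, against 34.1%. LSC1 and LSC2 were the genes without CCAAT in this window, and IDH2, KGD2, LSC1 and MDH1 those without GTCAC. ACO1 and IDH1 had no AGGGG there. The printed stretches leave out some matches. These are AGGGG at 159 and 134 bases before the start codon of CIT1, GTCAC at 450 for ACO1 and CCAAT at 129 for MDH1. A match is a description of the letters and not a bound site.

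CIT1, at the entry of the cycle, rose in all 4 mutants. CIT1 (YNR001C, chromosome XIV, 629622 to 631061) had 234, 239 and 243 FPKM in the double mutant and 232, 229.8 and 239.8 FPKM in slx5. It had 91.8, 91.1 and 92.9 FPKM in ulp2 and 125, 114 and 131 FPKM in set1, against 65.3, 61.5 and 72.8 FPKM in WT. The double mutant and slx5 overlapped, and below them the libraries of set1, ulp2 and WT formed 3 separate ranges. Relative to WT, CIT1 rose in the double mutant by 1.83 on the log2 scale (SE 0.062, adjusted p = 9.39e-11), in slx5 by 1.80 (adjusted p = 9.54e-11), in set1 by 0.88 (adjusted p = 3.23e-07) and in ulp2 by 0.46 (adjusted p = 3.66e-05).

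ACO1 (YLR304C, chromosome XII, 735212 to 737548), which converts citrate to isocitrate and also binds mitochondrial DNA, followed the same order. It had 339, 355 and 357 FPKM in the double mutant and 301, 306 and 305 FPKM in slx5. It had 141, 158 and 165 FPKM in ulp2 and 202, 192 and 195 FPKM in set1, against 133, 117 and 141 FPKM in WT. Libraries of the double mutant, slx5 and set1 did not overlap WT or each other, and those of ulp2 overlapped WT. The rise was 1.42 in the double mutant (SE 0.069, adjusted p = 2.38e-09), 1.22 in slx5 (adjusted p = 1.46e-08), 0.59 in set1 (adjusted p = 2.91e-05) and 0.24 in ulp2 (adjusted p = 0.00935). The ulp2 call was lost when ulp2 and WT were fitted alone (adjusted p = 0.0780). ACO1 lies close to MET17 (chromosome XII, 732542 to 733876), which averaged 228 FPKM in the double mutant and 0.726 FPKM in slx5. The part of the MET17 locus in the ACO1 level was not tested.

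IDH1 and IDH2, which form one enzyme, were both highest in slx5. IDH2 (YOR136W, chromosome XV, 580250 to 581359) had 407, 413 and 426 FPKM in the double mutant and 524, 509 and 527 FPKM in slx5. It had 184, 182 and 186 FPKM in ulp2 and 237.5, 232 and 252 FPKM in set1, against 181, 182 and 202 FPKM in WT. The slx5 libraries stood above all others, and ulp2 overlapped WT. IDH1 (YNL037C, chromosome XIV, 557920 to 559002) had 257, 279 and 270.3 FPKM in the double mutant and 326, 319 and 310.2 FPKM in slx5. It had 165, 163 and 148 FPKM in ulp2 and 195, 199 and 191 FPKM in set1, against 156, 137 and 163 FPKM in WT. For IDH1, too, slx5 stood above all other libraries and ulp2 overlapped WT. In slx5 IDH2 rose by 1.46 (SE 0.048, adjusted p = 6.67e-11) and IDH1 by 1.07 (SE 0.064, adjusted p = 2.43e-08). In the double mutant the rises were 1.14 for IDH2 and 0.82 for IDH1, and in set1 they were 0.35 and 0.36. With equal library sums the IDH2 difference in set1 was no longer called (0.30, adjusted p = 0.0609). Neither passed the test in ulp2, where the differences were -0.033 for IDH2 (adjusted p = 0.586) and 0.062 for IDH1 (adjusted p = 0.434).

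The 2-oxoglutarate dehydrogenase genes moved less. KGD1 (YIL125W, chromosome IX, 122689 to 125733), which encodes the E1 component, had 108, 102 and 103 FPKM in the double mutant and 86.5, 82.8 and 82.4 FPKM in slx5. It had 70.6, 73.6 and 70.1 FPKM in ulp2 and 75.8, 81.8 and 88.6 FPKM in set1, against 69.6, 79.2 and 83.1 FPKM in WT. Only the double mutant stood clear of the other strains, and slx5, set1, ulp2 and WT overlapped from one to the next. KGD1 rose in the double mutant by 0.43 (SE 0.067, adjusted p = 0.000105). Its difference in slx5, 0.12, did not pass the test (95% confidence interval -0.026 to 0.27, adjusted p = 0.158), and it was the 1 gene of the 10 not called in slx5. KGD2 (YDR148C, chromosome IV, 753675 to 755066), which encodes the E2 component, had 143, 139.5 and 133.5 FPKM in the double mutant and 123, 142 and 139.4 FPKM in slx5. It had 68.9, 82.3 and 78.001 FPKM in ulp2 and 125, 111 and 118 FPKM in set1, against 90.0, 95.1 and 95.5 FPKM in WT. All libraries of ulp2 lay below WT, and those of the double mutant, slx5 and set1 lay above it. KGD2 rose by 0.56 in the double mutant, 0.52 in slx5 and 0.33 in set1, and fell by 0.29 in ulp2 (SE 0.072, adjusted p = 0.00412). With equal library sums neither the KGD2 difference in ulp2 (-0.18, adjusted p = 0.302) nor that in set1 (0.29, adjusted p = 0.132) was called. The KGD1 difference in ulp2, -0.11, passed the test as lower without WT replicate 0 (-0.18, adjusted p = 0.0264).

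The subunits of succinyl-CoA ligase differed from each other. LSC1 (YOR142W, chromosome XV, 593057 to 594046), the alpha subunit, had 201.5, 206 and 202 FPKM in the double mutant and 226, 238 and 223 FPKM in slx5. It had 144, 151 and 147 FPKM in ulp2 and 240.2, 239.5 and 249 FPKM in set1, against 148, 149 and 158 FPKM in WT. LSC1 was the 1 gene of the 10 that was highest in set1, whose libraries lay above those of every other strain. LSC2 (YGR244C, chromosome VII, 978036 to 979319), the beta subunit, had 133, 139 and 130.3 FPKM in the double mutant and 173, 185 and 185 FPKM in slx5. It had 81.9, 90.1 and 88.3 FPKM in ulp2 and 98.4, 102 and 107 FPKM in set1, against 55.9, 59.9 and 61.5 FPKM in WT. No 2 strains overlapped for LSC2. LSC2 rose by 1.17 in the double mutant, 1.60 in slx5, 0.55 in ulp2 and 0.79 in set1 (SE 0.054 each, largest adjusted p = 2.72e-06). LSC1 rose by 0.42, 0.59 and 0.67 in the double mutant, slx5 and set1 (SE 0.041 each, largest adjusted p = 1.81e-06), and its difference in ulp2 was -0.042 (adjusted p = 0.407).

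FUM1 (YPL262W, chromosome XVI, 47336 to 48802), whose product acts in mitochondria and in the cytosol, moved little outside slx5. It had 161, 164 and 164 FPKM in the double mutant and 205, 224 and 226 FPKM in slx5. It had 125, 140.4 and 130.4 FPKM in ulp2 and 169.9, 143 and 147 FPKM in set1, against 138, 143 and 149.9 FPKM in WT. The slx5 libraries stood alone, and the other 4 strains overlapped from one to the next. The rise in slx5 was 0.60 (SE 0.067, adjusted p = 8.48e-06). The rise of 0.18 in the double mutant (adjusted p = 0.0308) was lost when any 1 of its own 3 libraries, WT replicate 0 or WT replicate 1 was left out, at adjusted p values of 0.0560 to 0.0975. It was also lost with equal library medians (0.10, adjusted p = 0.169) or quantile normalization (0.14, adjusted p = 0.0798).

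MDH1 (YKL085W, chromosome XI, 279123 to 280127), which regenerates oxaloacetate, had the widest range of the 10 genes, with a 4.04-fold span between the highest and the lowest strain mean. It had 540.5, 532 and 636 FPKM in the double mutant and 437, 459 and 455 FPKM in slx5. It had 140.4, 146 and 137 FPKM in ulp2 and 175, 163 and 176 FPKM in set1, against 214, 166 and 193 FPKM in WT. The double mutant and slx5 each stood apart, set1 overlapped WT, and ulp2 lay below every other strain. MDH1 made up 22.0% of the summed FPKM of the 10 genes in the double mutant, 16.8% in slx5, 11.3% in ulp2 and 10.54% in set1, against 15.2% in WT. MDH1 rose by 1.57 in the double mutant (SE 0.085, adjusted p = 6.58e-09) and by 1.24 in slx5 (adjusted p = 9.06e-08), and fell by 0.43 in ulp2 (adjusted p = 0.000932). Its difference in set1 was -0.15 (adjusted p = 0.191) and passed the test as lower without WT replicate 1 (-0.25, adjusted p = 0.0271).

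**Figure D2:**
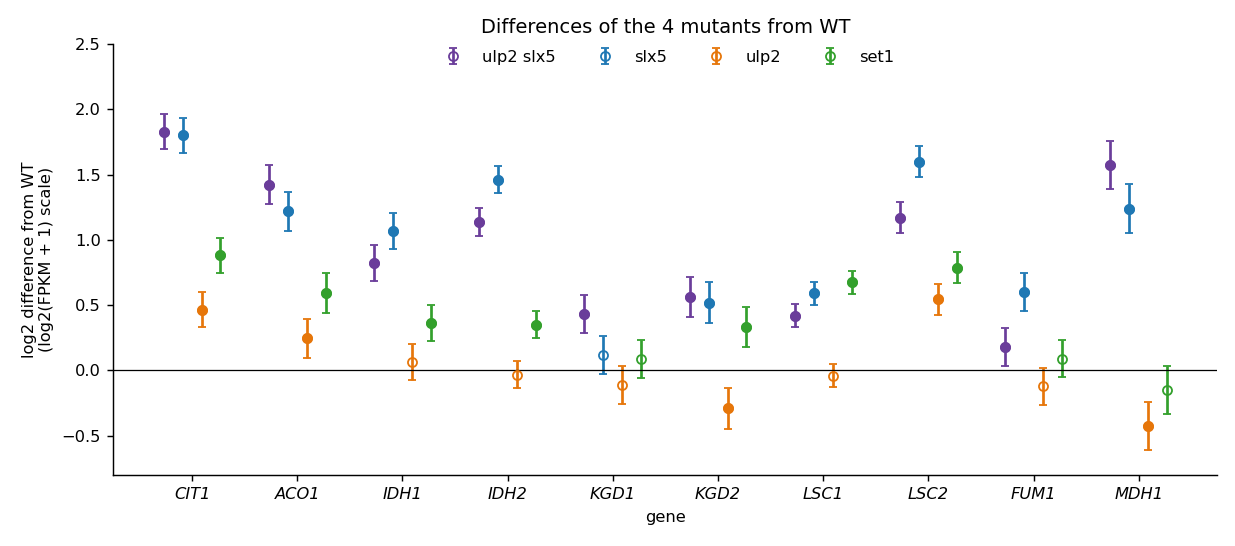
Differences from WT on the log2(FPKM + 1) scale (vertical axis) for the 10 genes (horizontal axis) in 4 mutants, with 95% confidence intervals from limma. Filled points passed the test at an adjusted p under 0.05 and open points did not. CIT1 lies at 1.83 in the double mutant and 1.80 in slx5, and MDH1 at 1.57 and 1.24 in the same strains but at -0.43 in ulp2.

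The slx5 strain was also compared with set1, which like ulp2 and slx5 expressed the MATalpha-specific markers. Of the 10 genes, 7 were higher in slx5 than in set1 and 0 lower, where 20.5% of all tested genes were higher and 22.7% lower. MDH1 differed most, by 1.39 (SE 0.085, adjusted p = 9.78e-08), followed by IDH2 at 1.11 and CIT1 at 0.92. KGD1 (0.034), KGD2 (0.19, adjusted p = 0.0530) and LSC1 (-0.085) did not pass the test. The KGD2 difference passed it without slx5 replicate 0 (0.25, adjusted p = 0.0178) and without set1 replicate 0 (0.23, adjusted p = 0.0414). LYS2 and MET17 differed between slx5 and set1 as given above, and their part in these differences was not tested. For the double mutant against WT, both of which expressed MATa-specific genes, the 10 rises are given above.

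The double mutant was also compared directly with each of its single mutants. Both comparisons set a strain with MATa-specific markers against one with MATalpha-specific markers. Within each of them the deletion and the mating type cannot be told apart. Against ulp2, 10 of 10 genes were higher in the double mutant, by 0.30 (FUM1) to 2.002 (MDH1), where 26.4% of all tested genes were higher and 26.2% lower. Against slx5, 3 genes were higher in the double mutant and 5 lower (17.3% of all tested genes higher and 13.4% lower). The higher genes were MDH1 (0.33), KGD1 (0.31) and ACO1 (0.20, adjusted p = 0.0408). The lower genes were LSC2 (-0.43), FUM1 (-0.42), IDH2 (-0.32), IDH1 (-0.24) and LSC1 (-0.17). CIT1 (0.029, 95% confidence interval -0.10 to 0.16) and KGD2 (0.043, -0.11 to 0.20) did not pass the test. The ACO1 call was lost without any 1 of the 6 libraries (adjusted p of 0.0595 to 0.109) and with equal library medians (0.15, adjusted p = 0.115), and the IDH1 call without double mutant replicate 0 (-0.21, adjusted p = 0.0525). With libraries scaled to one FPKM sum, MDH1, KGD1 and ACO1 were called and the 5 lower genes were not. With that scaling the median of all tested genes was 0.13 in this comparison and 0.28 in the double mutant against WT. Without it those medians were -0.013 and 0.025.

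For most of the genes the difference between strains without and with SLX5 was not the same without ULP2 as with it. The interaction of the 2 deletions, which is the double mutant minus ulp2, less slx5 minus WT, passed the test for 8 of the 10 genes, where 41.8% of all tested genes passed. It was positive for 3 of them and negative for 5. Over all tested genes the share was not counted by direction, and the median interaction was 0.0049. MDH1 had the largest positive value, 0.76 (SE 0.12, adjusted p = 0.000235), with a difference of 2.002 without ULP2 and 1.24 with it. KGD1 (0.42) and KGD2 (0.33) were the other two. LSC2 had the largest negative value, -0.97 (SE 0.077, adjusted p = 7.24e-07), with a difference of 0.63 without ULP2 and 1.60 with it. CIT1 (-0.43), IDH1 (-0.31), FUM1 (-0.30) and IDH2 (-0.29) were negative too. ACO1 (-0.041, adjusted p = 0.776) and LSC1 (-0.13, adjusted p = 0.0901) did not pass the test, though LSC1 passed it without WT replicate 2 (-0.16, adjusted p = 0.0474). The FUM1 interaction was lost without slx5 replicate 1, slx5 replicate 2 or ulp2 replicate 1 (adjusted p of 0.0548 to 0.0604). With libraries scaled to one FPKM sum, the positive and the negative calls numbered 1 each, MDH1 and LSC2. The double mutant and WT expressed MATa-specific markers, and slx5 and ulp2 MATalpha-specific markers. The interaction splits the strains in the same way, so it cannot be told apart from a difference by mating type.

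**Figure D3:**
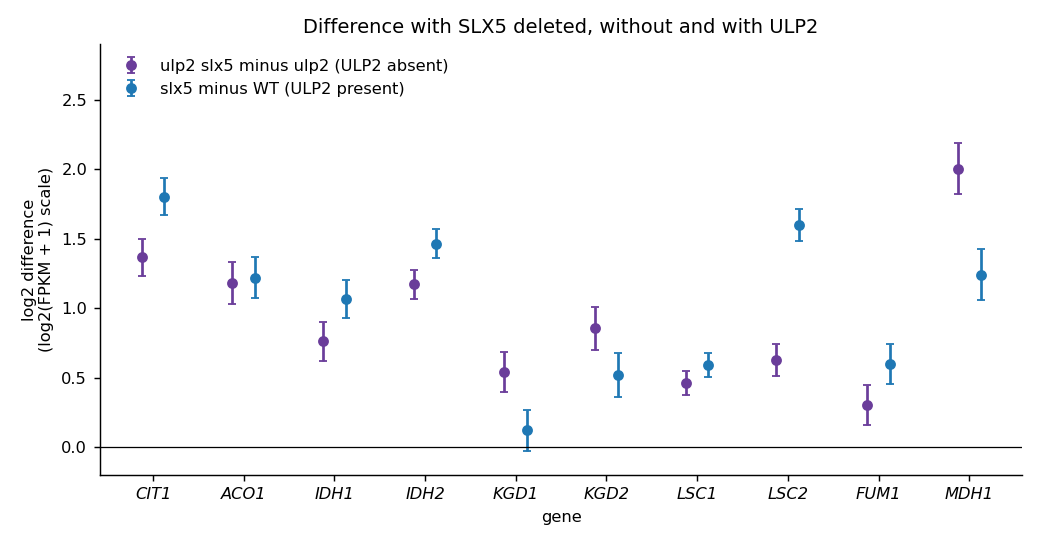
Differences on the log2(FPKM + 1) scale (vertical axis) between strains without and with SLX5 for the 10 genes (horizontal axis), in cells without ULP2 (the double mutant minus ulp2) and with ULP2 (slx5 minus WT). Points are limma estimates and bars 95% confidence intervals. The double mutant and WT expressed MATa-specific markers, and ulp2 and slx5 MATalpha-specific markers. For LSC2 the values are 0.63 and 1.60, for MDH1 2.002 and 1.24, and for ACO1 1.18 and 1.22.

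Some of the 10 genes lie on chromosomes whose genes moved together, and each was set beside the median of the other tested genes of its chromosome. On chromosome XII, the median of 493 other genes in ulp2 was 0.78 above WT, while ACO1 was at 0.24 and lay below each of its 20 nearest tested neighbours, whose median was 0.75. In the double mutant the median of chromosome XII was 0.067, and ACO1 was at 1.42. For the double mutant against ulp2 that median was -0.70, and ACO1 was at 1.18. The interaction of ACO1, -0.041, stood beside a chromosome XII median of -0.72. On chromosome XI, the median of the other genes in the double mutant was 0.66 above WT, and MDH1 was at 1.57. The median of chromosome XI in the double mutant against slx5 was 0.49, and MDH1, at 0.33, lay below 15 of its 20 neighbours. The interaction of MDH1, 0.76, stood beside a chromosome XI median of 0.61. In slx5 the median of chromosome VII was 0.18, and LSC2 was at 1.60. For the other 7 genes the chromosome median lay between -0.14 and 0.015 in all 4 mutants against WT. The part of the chromosome-wide shifts in the values of single genes was not tested.

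**Figure D4:**
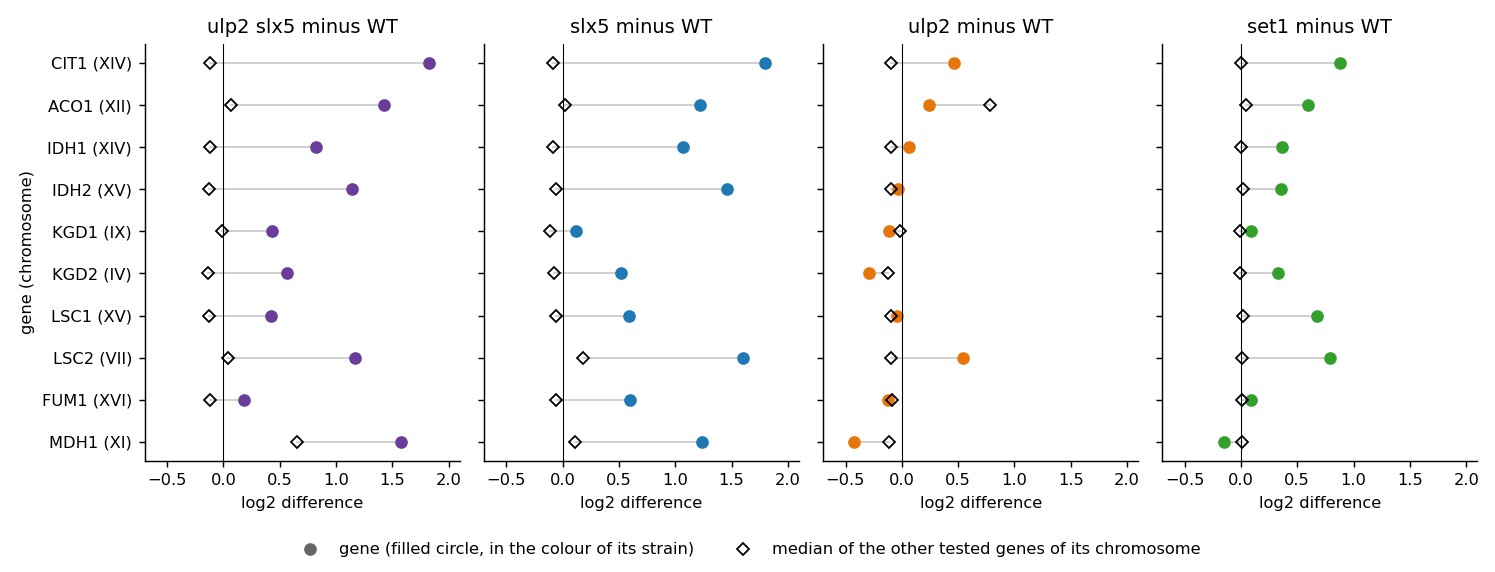
Log2 differences from WT (horizontal axes) of the 10 genes, with the chromosome of each in brackets on the vertical axis, in 4 panels for 4 mutants. Filled circles are the genes, and open diamonds the median of the other tested genes of the same chromosome. ACO1 lies at 0.24 in ulp2, left of its chromosome median of 0.78, and MDH1 at 1.57 in the double mutant, right of its chromosome median of 0.66.

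Partners within one enzyme were compared as ratios of FPKM, which is scaled to length. LSC1 exceeded LSC2 by 1.51 ± 0.037-fold in the double mutant, 1.27 ± 0.053-fold in slx5, 1.70 ± 0.050-fold in ulp2 and 2.36 ± 0.067-fold in set1, against 2.57 ± 0.081-fold in WT (SD, n = 3 each). Every mutant library had a lower ratio than every WT library. The ratio of IDH1 to IDH2 was 0.648 ± 0.024 in the double mutant and 0.612 ± 0.021 in slx5, against 0.807 ± 0.055 in WT, without overlap. In ulp2 (0.862 ± 0.058) and set1 (0.812 ± 0.049) this ratio overlapped WT. The ratio of KGD1 to KGD2 was 0.754 ± 0.020 in the double mutant, 0.626 ± 0.067 in slx5, 0.939 ± 0.074 in ulp2 and 0.697 ± 0.077 in set1, against 0.826 ± 0.049 in WT. The ulp2 libraries lay above WT and those of slx5 and set1 below it, while the double mutant, whose highest ratio was 0.7736 against a lowest of 0.7734 in WT, overlapped WT.

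The ratio of mitochondrial CIT1 to peroxisomal CIT2 separated ulp2 from set1. It was 2.27 ± 0.072 in the double mutant, 2.79 ± 0.045 in slx5, 1.10 ± 0.063 in ulp2 and 3.85 ± 0.49 in set1, against 2.12 ± 0.34 in WT. The ulp2 libraries lay below WT, those of slx5 and set1 above it, and those of the double mutant overlapped it. The ratios of the 4 pairs in the 4 mutants gave 16 differences from WT, of which 12 showed no overlap of libraries. How often ratios of other gene pairs lack overlap was not counted, so this count is a description. The 16 differences were tested as differences of log2(FPKM + 1). Each has a two-sided exact permutation p that cannot go below 0.1 at 3 libraries against 3. In this exact test 13 differences had p = 0.1 (0.123 adjusted over the 16 tests), and the other 3 had p = 0.3 to 0.8. The 13th was KGD1 to KGD2 in the double mutant, which separates from WT on the log2(FPKM + 1) scale but not as a ratio of FPKM.

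**Figure D5:**
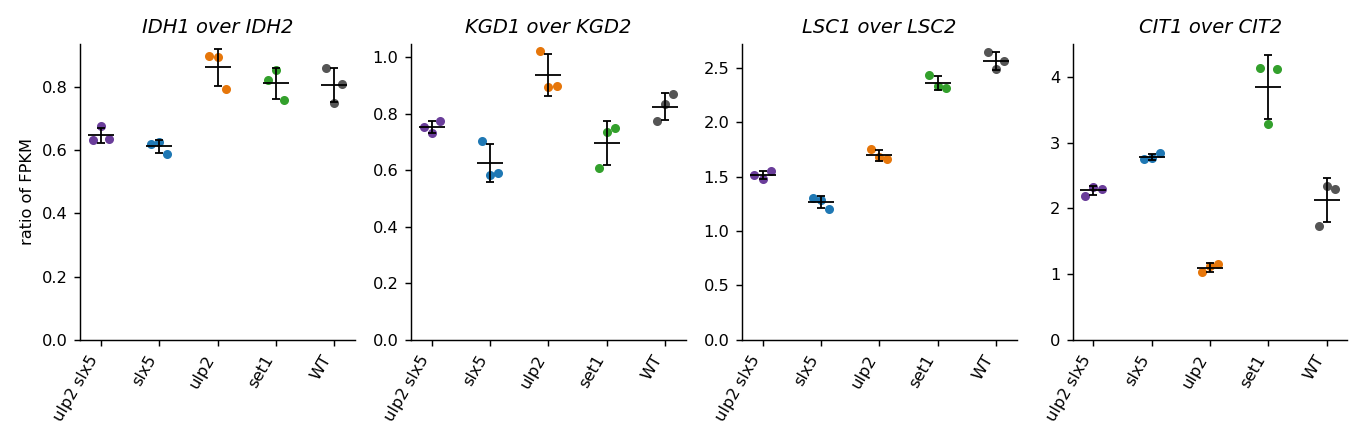
Ratios of FPKM (vertical axes, from 0) of 4 gene pairs in the 15 libraries, by strain along the horizontal axes. Points are libraries, and bars the mean ± SD of 3 libraries. LSC1 over LSC2 is 1.27 in slx5 and 2.57 in WT, and CIT1 over CIT2 is 1.10 in ulp2 and 3.85 in set1.

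Other genes that feed or complete the cycle were counted from lists chosen by function with earlier results of these data known, and the shares of all tested genes called are those given above. Of the 10 genes of succinate dehydrogenase, pyruvate dehydrogenase and the 2-oxoglutarate dehydrogenase partners LPD1 and KGD4, 6 rose and 1 fell in the double mutant, 9 and 0 in slx5, 0 and 4 in ulp2 and 5 and 0 in set1. SDH1, the flavoprotein subunit, averaged 124 ± 3.78 FPKM in the double mutant, 72.2 ± 0.866 in slx5, 28.7 ± 3.37 in ulp2 and 38.4 ± 1.62 in set1, against 30.2 ± 1.36 in WT. It rose by 2.0015 in the double mutant (adjusted p = 1.60e-10), and it lies on chromosome XI, as does SDH3, the cytochrome b subunit, which rose by 1.40 there. SDH4, the second membrane anchor, rose by 1.06 in the double mutant and 1.08 in slx5. The E1 beta subunit of pyruvate dehydrogenase, PDB1, named after its values were seen, was the 1 gene that fell in the double mutant, by 0.14 (adjusted p = 0.0244).

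Isoenzymes of the cycle, some in mitochondria and some in peroxisomes or the cytosol, included genes raised in ulp2. Of 8 isoenzyme genes, 4 rose and 1 fell in the double mutant, 6 and 1 in slx5, 5 and 1 in ulp2 and 2 and 1 in set1. CIT2 averaged 105.03 ± 2.12 FPKM in the double mutant, 83.9 ± 0.795 in slx5, 83.9 ± 4.73 in ulp2 and 32.2 ± 2.29 in set1, against 31.9 ± 5.71 in WT. It rose by 1.70, 1.38 and 1.38 in the double mutant, slx5 and ulp2, and its difference in set1 was 0.027 (adjusted p = 0.864). The cytosolic isocitrate dehydrogenase gene IDP2 averaged 15.6 ± 1.11 FPKM in the double mutant, 14.2 ± 0.990 in slx5, 24.3 ± 4.03 in ulp2 and 8.58 ± 0.838 in set1, against 4.57 ± 0.610 in WT. IDP2, on chromosome XII, rose most in ulp2, by 2.17. CIT3, a minor mitochondrial citrate synthase gene, rose in all 4 mutants, by 0.53 in ulp2 to 0.79 in slx5.

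Of the 6 genes of the glyoxylate shunt and anaplerosis, 5 rose in the double mutant, 5 in slx5, 6 in ulp2 and 4 in set1, and 0 fell in any of them. PYC1, which encodes pyruvate carboxylase, averaged 52.0 ± 1.68 FPKM in the double mutant, 45.5 ± 2.76 in slx5, 29.6 ± 3.76 in ulp2 and 19.1 ± 1.72 in set1, against 14.2 ± 0.182 in WT. PCK1, which encodes the gluconeogenic enzyme phosphoenolpyruvate carboxykinase, averaged 16.6 ± 1.57 FPKM in the double mutant, against 4.26 ± 0.845 FPKM in WT. It rose by 1.75, and it too lies on chromosome XI, whose median there was 0.66. The malate synthase gene MLS1 averaged 6.12 ± 2.73 FPKM in ulp2, against 2.46 ± 0.480 FPKM in WT, and rose by 0.97. Of 9 mitochondrial carriers, 5 rose and 2 fell in the double mutant, in slx5 and in ulp2, and 2 rose and 1 fell in set1. MPC3, a pyruvate carrier subunit, rose by 1.61 in the double mutant. The succinate-fumarate carrier gene SFC1 rose by 1.48 and the dicarboxylate carrier gene DIC1 by 1.08 in ulp2, the second of them on chromosome XII.

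Among the regulators, HAP4 rose in 3 of the 4 mutants. It lies on chromosome XI, whose genes had a median of 0.66 in the double mutant. It averaged 300.4 ± 4.01 FPKM in the double mutant, 208 ± 13.8 in slx5, 123 ± 11.1 in ulp2 and 268 ± 33.5 in set1, against 113 ± 11.1 in WT. The rise was 1.41 in the double mutant (SE 0.097, adjusted p = 6.53e-08), 0.88 in slx5 and 1.24 in set1, and in ulp2 the difference was 0.12 (adjusted p = 0.299). HAP4 was lower in slx5 than in set1, at a difference of -0.36 (adjusted p = 0.00944). In the same comparison 7 of the 10 TCA cycle genes were higher. The part of HAP4 in the levels of the 10 genes was not tested. Of the 9 HAP and carbon source regulators, 2 rose and 3 fell in the double mutant, 2 and 3 in slx5, 2 and 5 in ulp2 and 3 and 2 in set1. CAT8, an activator of gluconeogenic genes, rose by 1.18 in the double mutant, and the hexokinase gene HXK2, whose product also takes part in glucose repression, fell by 0.60 there.

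Of the 5 retrograde pathway genes, 1 rose and 2 fell in the double mutant, 2 and 3 in slx5, 1 and 2 in ulp2 and 1 and 0 in set1. DLD3, a known target of Rtg1 and Rtg3, averaged 162 ± 5.68 FPKM in the double mutant, 159 ± 0.984 in slx5, 158 ± 13.3 in ulp2 and 89.2 ± 3.48 in set1, against 75.2 ± 5.86 in WT. DLD3 and CIT2 averaged nearly the same in ulp2 and slx5. In ulp2 CIT1 rose by 0.46, and ACO1 rose by 0.24 with libraries that overlapped WT. IDH1 and IDH2 in ulp2 overlapped WT and were not called. The part of the retrograde pathway in these values was not tested. MKS1, a negative regulator of the pathway, fell by 0.39 in the double mutant and 0.32 in slx5, and RTG1 fell by 0.43 in slx5.

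Across the 15 libraries the 45 pairs among the 10 genes correlated by 0.361 (KGD1 with FUM1) to 0.987 (CIT1 with ACO1), with a median of 0.811. This is a description over libraries that share their strain. Against the mean of the other 9 genes, IDH2 (0.973), IDH1 (0.967), CIT1 (0.963) and ACO1 (0.958) were most alike, and KGD1 (0.699) and LSC1 (0.730) least. Among 5678 other genes whose mean reached 10 FPKM, the 5 that followed the mean standardised profile of the 10 most closely were QCR2, SDH4, MEF2, GRE3 and ARA1, with correlations of 0.981 to 0.986 over 15 libraries. QCR2, a core subunit of respiratory complex III, averaged 235 ± 6.22 FPKM in the double mutant, 229 ± 16.9 in slx5, 92.9 ± 4.31 in ulp2 and 128 ± 10.7 in set1, against 97.7 ± 5.27 in WT. MEF2 encodes a mitochondrial translation factor, GRE3 an aldose reductase and ARA1 an arabinose dehydrogenase. SDH4, of succinate dehydrogenase, is described above.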

How the data were processed

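Per the labels' protocols, RNA was extracted with an RNeasy kit and oligo(dT) was used to select polyadenylated RNA. The deposited values are FPKM per gene and replicate. TopHat2 2.0.12, Cuffdiff (version not given) and build R64 are named in the submitters' processing notes, and parameters, annotation and strandedness are not given in the sources used here. FPKM is relative to all fragments of a library, and RPL41A with RPL41B took 3.09 to 21.7% of the FPKM. Depth is unknown, so no counting interval was computed.

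Genes reaching 1 FPKM in 3 or more of 15 libraries were kept. These 6474 genes, with all 10 TCA cycle genes among them, were analysed as log2(FPKM + 1), which understates changes of low genes. R 4.3.3 and limma 3.58.1 (lmFit, eBayes with trend) fitted all 5 strains together with 10 residual degrees of freedom. The 8 differences were each adjusted by Benjamini-Hochberg over all tested genes. The fit was tested on simulated data. P-values measure the spread between samples that the labels do not say came from separate cultures. Positions come from the RefSeq annotation of R64, which matched 6048 of 7126 genes. Replicate numbers 0, 1 and 2 pair nothing in the labels, and were used as a block only as an alternative.

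The 10 genes are named in full. From each further functional list the text names the 3 called genes that differed most from WT, and HAP4, CIT2, DLD3 and MKS1. Genes of like profile are the 5 with the highest Pearson correlation. The genes, lists and tests were chosen with earlier results of these data known, and LYS2 and MET17 were added after seeing them. Alternatives covered the pseudocount, filters, scalings, the samples fitted, the variance trend and leaving out each replicate.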

Additional observations from a re-analysis of the deposited data

Results flagged for a closer look

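The difference between strains without and with SLX5 was not the same without ULP2 as with it for 8 of the 10 genes, by the limma interaction test. The interaction was 0.76 for MDH1, 0.42 for KGD1 and 0.33 for KGD2, whose difference was larger without ULP2. It was -0.97 for LSC2, -0.43 for CIT1, -0.31 for IDH1, -0.30 for FUM1 and -0.29 for IDH2, whose rise was smaller without ULP2. Of all tested genes, 41.8% passed the same test. The median interaction on chromosome XI, which holds MDH1, was 0.61. Mating-type markers in the double mutant were those of WT, while slx5 and ulp2 expressed the other set, and MET17 was near 0 in slx5 alone. The interaction sets the double mutant and WT against slx5 and ulp2. The mating-type markers split these strains in the same way, so their part cannot be told apart from the interaction. The part of MET17 was not tested.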

How the results depend on the processing

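The counts of TCA cycle genes were the same or within 1.5 times in 261 of 268 recomputations. The 7 others came from sum scaling and from WT replicate 1. With equal library sums, 1 gene was lower in ulp2 (main count 2), 0 were lower in the double mutant against slx5 (main 5), and the interaction was positive for 1 (main 3) and negative for 1 (main 5). With sums taken without RPL41A and RPL41B, chosen after seeing the data, 1 was lower in ulp2 and the interaction was positive for 1. The number lower in set1 ranged from 0 to 1 when a replicate was left out, MDH1 being the 1 without WT replicate 1. With equal sums the median of all tested genes reached 0.28, in the double mutant against WT, where it was 0.025 in the main fit. The 16 changes of sign were all in differences not called at first. With equal medians, the double mutant minus slx5 was -0.025 for CIT1 and -0.011 for KGD2. With equal sums, ulp2 minus WT was 0.079 for IDH2, 0.0013 for KGD1 and 0.070 for LSC1, slx5 minus set1 was 0.071 for LSC1, and the ACO1 interaction was 0.0015. Without RPL41A and RPL41B these were 0.051 for IDH2, 0.042 for LSC1 and 0.082 for LSC1 against set1. Leaving out a replicate gave -0.021 to 0.081 for KGD2 in the double mutant minus slx5, -0.11 to 0.037 for the ACO1 interaction and -0.022 to 0.090 for KGD1 in slx5 minus set1. In ulp2 minus WT it gave -0.011 to 0.12 for IDH1 and -0.061 to 0.017 for IDH2. The cause was not tested. Over all tested genes, the calls in set1 numbered 1366 with equal sums and 1465 with set1 and WT fitted alone (main 2413), and those in the double mutant against slx5 1309 with equal sums (main 1988). With the replicate number as a block, 9 genes still rose in slx5 and no call on the 10 genes changed. Deviations of same-numbered libraries from their strain means correlated by -0.13 to 0.14, so the numbers were not treated as pairs. Depth is unknown, so the limit it sets was not computed.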
